A study of Homo sapiens with 12 samples.

Results

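Gemcitabine, a deoxycytidine analogue used against pancreatic cancer, acts only after it has entered the cell and been phosphorylated, and 10 genes of this route were followed across 4 culture conditions of 1 cell line. The genes were taken by symbol from a table of 15090 genes: the equilibrative nucleoside transporters SLC29A1, SLC29A2 and SLC29A3, the activating kinases DCK and CMPK1, the deaminases CDA and DCTD, and the nucleotidases NT5C, NT5C2 and NT5E. All 10 symbols were listed, and all 10 were among the 12789 genes with at least 1 read per 1000000 (RPM) in at least 3 of 12 libraries. CDA was the one member near 1 RPM, with a mean of 1.72 RPM over the 12 libraries.

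Total RNA came from MIA PaCa-2, an established human pancreatic cancer line that the labels give as wild type. The 4 groups of 3 libraries were 40 mM L-glutamine with 0.5 µM gemcitabine, 40 mM L-glutamine without the drug, 2 mM L-glutamine with 0.5 µM gemcitabine, and 2 mM L-glutamine without the drug, all at 48 h. All groups shared RPMI medium lacking glutamine, into which L-glutamine was put at the stated level. The series design calls the 3 libraries of a group biological triplicates, and 1 cell line was used, so every value describes that line.

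In the textbook account, gemcitabine crosses the plasma membrane through nucleoside transporters, mainly SLC29A1, and DCK adds the first phosphate, which is usually taken as the limiting step. CMPK1 adds the next phosphate, and the di- and triphosphates act on ribonucleotide reductase and on DNA synthesis. CDA deaminates the free drug, DCTD deaminates its monophosphate, and nucleotidases can take the phosphate off again, while NT5E sits on the outside of the cell and is best known for making adenosine from AMP.

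Each library held between 21723094 and 32811746 reads in the listed genes. The scaling factors behind the deposited values were 1.03 in each of the 3 libraries with 40 mM glutamine and drug, and lay between 0.979 and 1.002 in the other 9. Of 7 markers chosen for an epithelial carcinoma line, 5 were listed, with KRT8 at 1355 to 2357 RPM and the mesenchymal filament gene VIM at 2944 to 3488 RPM. The summed level of the 5 was 5950 to 5970 RPM with drug and 5680 to 5930 RPM without drug at 40 mM glutamine, and 7360 to 7440 RPM with drug and 6570 to 6620 RPM without drug at 2 mM. VIM, at a mean of 3240 RPM, was the largest single part of this sum, so the sum does not measure epithelial identity. KRT8, KRT18, KRT19 and ZEB1 averaged 1765, 1150, 249 and 42.5 RPM, and KRT18 ranged from 795 to 1603 RPM. EPCAM and CDH1, which define epithelial cells, were not listed in the table. Of 6 fibroblast markers 3 were listed, and COL1A2, at a mean of 732 RPM, made up nearly all of their sum, since COL3A1 had 13.2 RPM and COL1A1 0.991 RPM. Their summed level was 663 to 716 RPM with drug and 882 to 911 RPM without drug at 40 mM glutamine, and 596 to 644 RPM with drug and 761 to 784 RPM without drug at 2 mM. LUM, DCN and PDGFRB were not listed, and the part of the carcinoma line and fibroblast markers in the results was not tested. Leukocyte and endothelial markers summed to at most 1.17 and 0.66 RPM in any library, and 0 of 4 acinar markers were listed.

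The promoters of the members that the comparisons below turn on, SLC29A1 and DCK, are shown with that of CDA, because these 3 held the E2F-type or E-box letters among the 13 RefSeq promoters found for 9 of the 10 members. SLC29A2 had no entry. Sequences are from RefSeq, build GRCh38.p14, plus strand, from 250 bases before the start site to 30 after it, and capitals mark the letters of these 2 motifs only.
SLC29A1, first of 2 promoters, chr6:44219365-44219644: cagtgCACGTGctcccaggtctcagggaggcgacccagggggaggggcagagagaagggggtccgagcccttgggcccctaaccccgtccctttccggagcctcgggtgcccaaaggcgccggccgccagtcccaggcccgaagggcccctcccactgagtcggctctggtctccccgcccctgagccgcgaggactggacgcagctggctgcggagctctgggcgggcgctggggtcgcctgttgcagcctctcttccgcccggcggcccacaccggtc
DCK, chr4:70993399-70993678: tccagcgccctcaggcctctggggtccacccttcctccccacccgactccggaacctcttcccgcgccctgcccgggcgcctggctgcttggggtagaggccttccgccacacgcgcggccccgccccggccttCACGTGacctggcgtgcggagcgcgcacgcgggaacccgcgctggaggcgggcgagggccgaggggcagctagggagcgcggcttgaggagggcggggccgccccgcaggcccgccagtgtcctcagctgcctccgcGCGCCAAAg
CDA, chr1:20588847-20589126: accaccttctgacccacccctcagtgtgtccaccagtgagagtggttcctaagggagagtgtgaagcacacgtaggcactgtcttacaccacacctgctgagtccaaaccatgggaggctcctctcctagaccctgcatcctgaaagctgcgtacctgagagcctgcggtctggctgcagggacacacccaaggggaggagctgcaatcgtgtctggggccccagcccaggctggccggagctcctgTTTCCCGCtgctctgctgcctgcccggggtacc

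Both strands of each window, from 250 bases before to 50 after the start site, were searched for E2F-type letters (TTTCCCGC, TTTGGCGC, TTTCGCGC or TTTGCCGC), the E-box CACGTG, the CCAAT box CCAAT and the GC box GGGCGG. E2F-type letters were found in DCK, 22 bases after the start site and reading on the other strand, and in CDA, 3 bases before it, while 3.31% of 35116 promoters of the same length held them. An E-box was found in SLC29A1, 245 bases before the start, and in DCK, 116 bases before it, against 7.26% of all promoters. GC boxes, held by 45% of all promoters, were found in at least 1 promoter of SLC29A1, SLC29A3, DCK, DCTD, NT5C, NT5C2 and NT5E and in none of CMPK1 or CDA. The CCAAT letters, held by 34.6% of all promoters, were in none of the 13. A match describes letters in the window and is not a measured site.

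Per kilobase of exon, the members covered a wide range. NT5E had the highest level, at a mean of 103 RPM per kb over the 12 libraries (95.7 to 109), followed by CMPK1 at 64.7 (63.0 to 66.5) and SLC29A1 at 36.2 (31.4 to 45.9). DCTD had 32.5 RPM per kb (30.4 to 34.9) and NT5C2 15.6 (13.2 to 17.7). NT5C had 10.2 RPM per kb (8.05 to 13.3), the kinase DCK 8.61 (6.87 to 10.9) and SLC29A2 6.08 (4.93 to 7.14). SLC29A3, at 1.93 (1.53 to 2.49), and CDA, at 1.78 (0.878 to 2.56), were lowest. The ranges of neighbours in this order overlapped for SLC29A1 and DCTD, NT5C2 and NT5C, NT5C and DCK, DCK and SLC29A2, and SLC29A3 and CDA, and the order was the same when the longest transcript gave the length. Levels of the nucleotide-removing surface enzyme NT5E and of the second-step kinase CMPK1 lay above that of every other member in each library, while the drug-inactivating deaminase CDA lay at 20 to 80 reads per library.

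**Figure D1:**
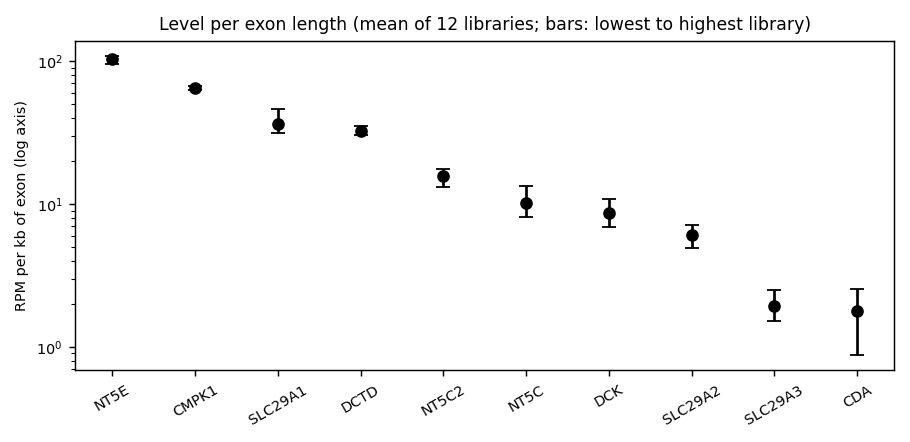
RPM per kilobase of exon on a log axis for the 10 members, as the mean of 12 libraries (points) with the lowest and highest library (bars). NT5E and CMPK1 stood above the other members, and SLC29A3 and CDA at 1.93 and 1.78 RPM per kb stood below them.

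With drug at 40 mM glutamine, SLC29A1, DCK and NT5C2 rose and SLC29A2 fell, so that 3 of 10 members were called higher, against 14.1% of all 12789 genes, and 1 lower, against 16.2%. With drug at 2 mM glutamine, SLC29A1, NT5C and NT5C2 rose and SLC29A2 fell, which is 3 of 10 higher, against 17.5% of all genes, and 1 of 10 lower, against 17.1%. SLC29A1 and NT5C2 thus rose and SLC29A2 fell at both glutamine levels. The members were chosen with earlier results of these data known, so the counts describe them and are not a test. Calls are at an adjusted p of 0.05 by limma over all genes, and differences are on the log2(RPM + 1) scale, which understates changes of low genes. Median differences of the members were 0.03 with drug at 40 mM, against −0.005 for all genes, and 0.01 with drug at 2 mM, against −0.001 for all genes. In a bulk library, fewer cells of a kind and less RNA per cell cannot be told apart.

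At 40 mM against 2 mM glutamine in the presence of drug, DCK was called higher and SLC29A1 lower, 1 of 10 members each way, against 8.62% and 13% of all genes. Without drug, 0 members were called higher, against 8.41% of all genes, and NT5C2 and NT5E were called lower, against 9.12%. The drug response itself differed between the glutamine levels for 1 member, SLC29A1, which was among the lower calls (1.47% of all genes). Among the higher calls (0.727% of all genes) there were 0 members. Averaged over both glutamine levels, 4 members (SLC29A1, DCK, NT5C and NT5C2) rose with drug and 1 (SLC29A2) fell, against 22% and 23.2% of all genes. Averaged over both drug levels, 0 members were higher at 40 mM glutamine and 3 (SLC29A1, NT5C2 and NT5E) were lower, although NT5E reversed to 0.003 under quantile normalisation, against 14.6% and 16.9% of all genes. The comparisons of drug and of glutamine draw on the same 12 libraries and so are not independent of each other. The drug comparisons at 40 and 2 mM share no library. Their calls still rest on 1 estimate of the spread per gene from all 12 libraries, so they are not fully independent either.

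**Figure D2:**
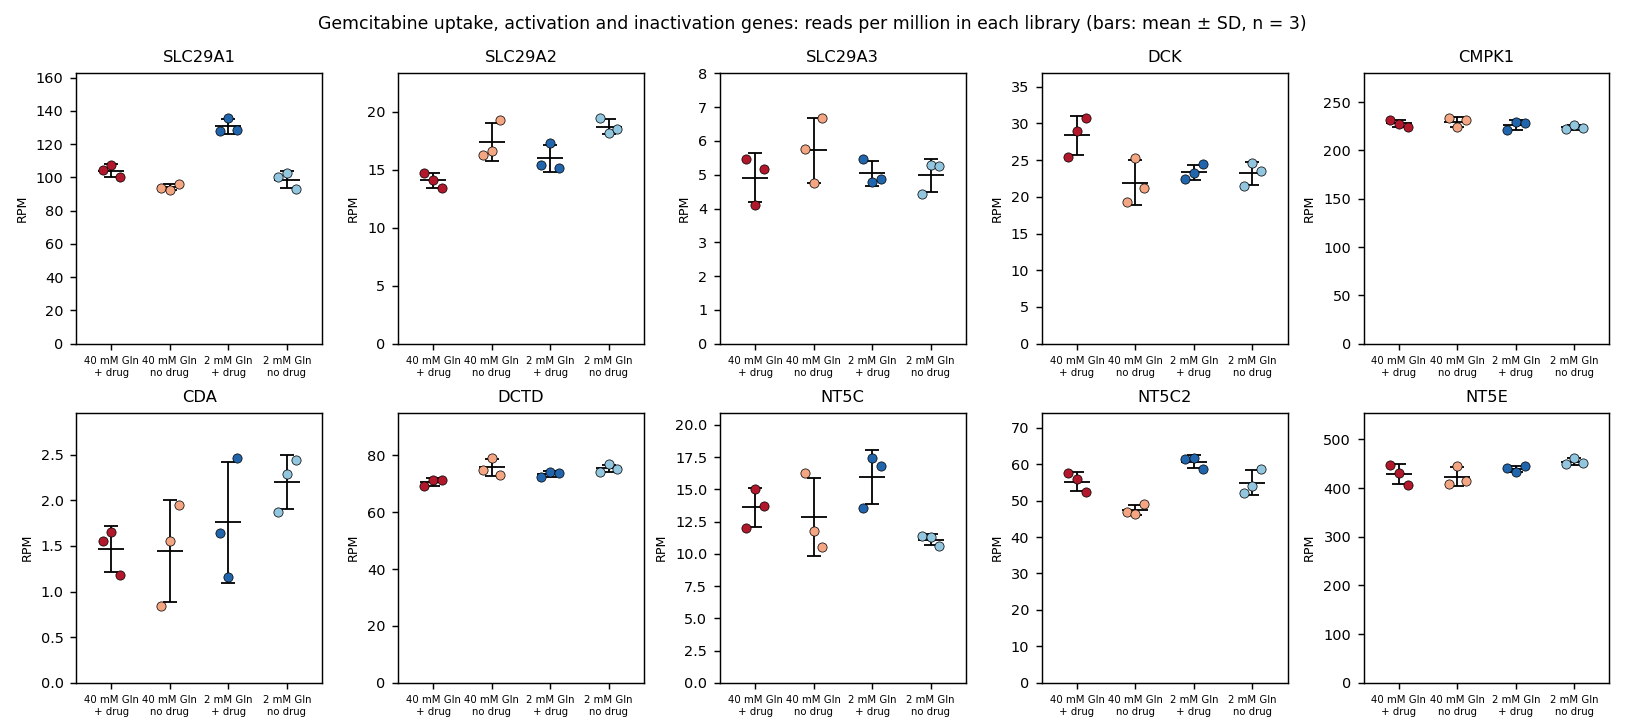
RPM of each member in every library (points), by group, with the mean and SD of 3 libraries (bars); each axis starts at 0. SLC29A1 with drug at 2 mM glutamine (128 to 136 RPM) stood above all other libraries. DCK with drug at 40 mM (25.5 to 30.7 RPM) was also above all other libraries, but only just above 1 untreated 40 mM library at 25.3 RPM.

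**Figure D3:**
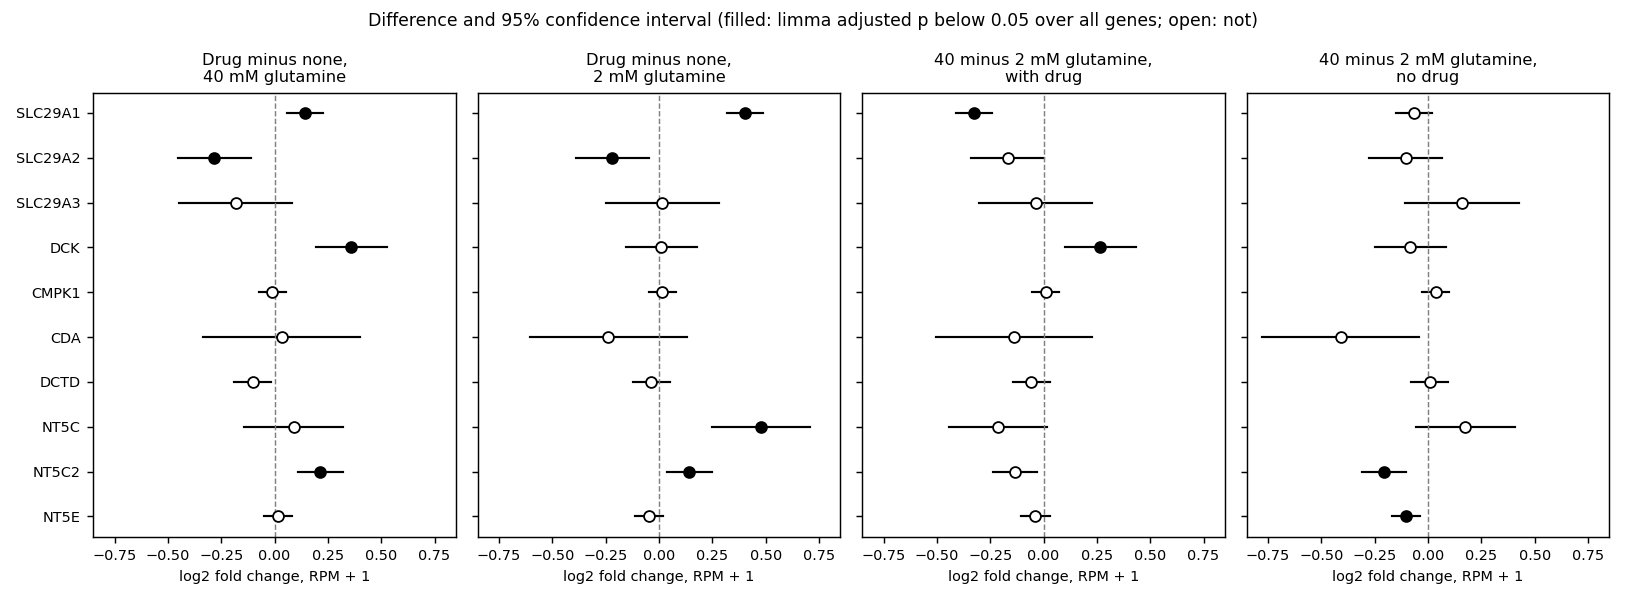
log2 fold change on the RPM + 1 scale (points) with its 95% confidence interval (bars) for the 10 members in 4 comparisons; filled points had a limma adjusted p below 0.05 over all genes. SLC29A1 rose with drug by 0.14 at 40 mM and 0.40 at 2 mM, and DCK rose by 0.36 at 40 mM and differed by 0.01 at 2 mM.

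SLC29A1 (ENT1), the carrier held to bring most gemcitabine into cells, had 105, 108 and 100 RPM with drug at 40 mM glutamine, against 93.6, 92.6 and 96.0 RPM without drug. At 2 mM it had 128, 136 and 128 RPM with drug, against 100.1, 103 and 93.0 RPM without drug. At both levels of glutamine all 3 drug libraries lay above all 3 without drug, and the gap was wider at 2 mM. The group means differed 1.11-fold at 40 mM, a log2 change of 0.14 ± 0.04 (SE; limma adjusted p = 0.00738), and 1.32-fold at 2 mM, a log2 change of 0.40 ± 0.04 (adjusted p = 1.51e-09). The difference between these responses, 40 mM minus 2 mM, was −0.26 ± 0.06 on the log2 scale, with a 95% interval of −0.38 to −0.14 and a limma adjusted p of 0.012.

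In the glutamine comparisons, SLC29A1 with drug was lower at 40 mM, at 104 ± 3.77 RPM, than at 2 mM, at 131 ± 4.25 RPM (SD, n = 3 each), and the groups did not overlap (log2 difference −0.33 ± 0.04, limma adjusted p = 5.21e-07). Without drug it averaged 94.1 ± 1.73 RPM at 40 mM and 98.6 ± 5.06 RPM at 2 mM, the groups overlapped, and the interval of the log2 difference was −0.15 to 0.02 (limma adjusted p = 0.284). Without replicate 2 of the 40 mM drug group, the drug response at 40 mM was 0.12 with an adjusted p of 0.0558, where the alternatives ranged between 0.000729 and 0.0558. Without replicate 2 of the 2 mM drug group, the difference between the responses was −0.23 with an adjusted p of 0.0577, where the alternatives ranged between 0.00617 and 0.0577.

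SLC29A2 (ENT2), a related carrier of broad substrate range, had 14.7, 14.1 and 13.4 RPM with drug at 40 mM glutamine, against 16.3, 16.6 and 19.3 RPM without drug. In 2 mM glutamine, it had 15.4, 17.3 and 15.1 RPM with drug, against 19.4, 18.2 and 18.5 RPM without drug. All drug libraries lay below all libraries without drug at the same glutamine level, which is the opposite direction to SLC29A1. The log2 differences were −0.28 ± 0.08 at 40 mM (limma adjusted p = 0.00955) and −0.22 ± 0.08 at 2 mM (adjusted p = 0.0411), and their difference, −0.06 ± 0.12, was not called (adjusted p = 0.857). Without replicate 3 of the untreated 40 mM group, the 40 mM value was −0.21 with an adjusted p of 0.0851 (0.00631 to 0.0851 over the alternatives). The call at 2 mM was also lost without any 1 of 5 of the 6 libraries compared (replicates 1 and 3 with drug, replicates 1, 2 and 3 without), with no low-value filter and with no scaling factors, the adjusted p ranging between 0.0238 and 0.153 over all alternatives while the value stayed between −0.28 and −0.18. Neither glutamine comparison called SLC29A2, with 95% intervals of −0.34 to 0.003 with drug and −0.28 to 0.07 without drug. Of its exon length, 10.3% lies opposite another annotated gene that the table does not list. Reads of that gene cannot be told apart there, since the strand setting is not known.

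SLC29A3 (ENT3), a carrier found mainly on membranes inside the cell, had 4.10 to 5.48 RPM with drug and 4.74 to 6.67 RPM without drug at 40 mM glutamine, and 4.79 to 5.47 RPM with drug and 4.43 to 5.29 RPM without drug at 2 mM. The groups overlapped in all 4 comparisons and none was called. The 95% intervals of the drug difference were −0.45 to 0.08 at 40 mM and −0.25 to 0.28 at 2 mM, from 99 to 182 reads per library. Between 40 and 2 mM glutamine the intervals were −0.30 to 0.23 with drug and −0.11 to 0.42 without drug. Per kilobase of exon, SLC29A1 made up 82.6 to 84.4% of the summed level of the 3 carriers with drug and 77.3 to 80.0% without drug at 40 mM glutamine, and 84.9 to 85.5% with drug and 78.2 to 80.1% without drug at 2 mM. In neither pair did the drug libraries overlap those without drug, but the share is built from the same carrier values as above and is not a further result. SLC29A4, at a mean of 75.5 RPM over the 12 libraries, was not in the sum.

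DCK, the kinase that adds the first phosphate to gemcitabine, had 25.5, 28.9 and 30.7 RPM with drug at 40 mM glutamine, against 19.3, 25.3 and 21.3 RPM without drug. At 2 mM it had 22.4, 23.2 and 24.5 RPM with drug, against 21.5, 24.6 and 23.5 RPM without drug. The 3 libraries with both 40 mM glutamine and drug were above all 9 others, although the lowest of them exceeded one untreated 40 mM library by little (25.5 against 25.3 RPM). The means differed 1.29-fold at 40 mM, a log2 change of 0.36 ± 0.08 (limma adjusted p = 0.000896), and at 2 mM by 0.01 with a 95% interval of −0.16 to 0.18 (adjusted p = 0.935). The difference between the responses was 0.35 ± 0.12, with an interval of 0.11 to 0.59, and did not pass adjustment over all genes (limma adjusted p = 0.111).

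With drug, DCK was higher at 40 mM, at 28.4 ± 2.68 RPM, than at 2 mM, at 23.4 ± 1.03 RPM (SD, n = 3 each), with a log2 difference of 0.27 ± 0.08 (limma adjusted p = 0.0176). Without drug it averaged 21.95 ± 3.03 RPM at 40 mM and 23.2 ± 1.61 RPM at 2 mM, with an interval of −0.25 to 0.08. The call with drug was lost without replicate 2 or 3 at 40 mM or replicate 1 or 2 at 2 mM, where the value was 0.21 to 0.26, and the adjusted p over the alternatives was 0.00397 to 0.112. Without replicate 2 of the untreated 40 mM group, the one at 25.3 RPM, the difference between the drug responses was 0.45 and was called (adjusted p = 0.0195, against 0.0195 to 0.265 over the alternatives).

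CMPK1, the UMP/CMP kinase that adds the next phosphate, varied little. It had 225 to 232 RPM with drug and 224 to 233 RPM without drug at 40 mM glutamine, and 221 to 229 RPM with drug and 222 to 226 RPM without drug at 2 mM. The groups overlapped throughout, and the 95% intervals of the drug difference were −0.07 to 0.05 at 40 mM and −0.05 to 0.08 at 2 mM on the log2 scale. Those between 40 and 2 mM glutamine were −0.05 to 0.07 with drug and −0.03 to 0.10 without drug. The difference between 40 and 2 mM glutamine averaged over both drug levels was 0.02, not called, but it was called at 0.06 to 0.07 under the 3 other scalings.

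CDA, cytidine deaminase, turns gemcitabine into its inactive uracil form, and its counts were the lowest of the members. It had 1.56, 1.66 and 1.18 RPM with drug at 40 mM glutamine, against 0.845, 1.55 and 1.94 RPM without drug. At 2 mM glutamine, its level was 1.65, 1.16 and 2.47 RPM with drug, against 1.87, 2.28 and 2.45 RPM without drug. The groups overlapped in both drug comparisons, whose 95% intervals were −0.33 to 0.40 at 40 mM and −0.61 to 0.13 at 2 mM. At 40 against 2 mM glutamine without drug the log2 difference was −0.41, with an interval of −0.78 to −0.04 and a limma adjusted p of 0.115, and these groups overlapped. With drug the interval was −0.51 to 0.23. Averaged over both drug levels it was −0.28 ± 0.13 (adjusted p = 0.1), and it was called without replicate 2 of the 2 mM drug group (−0.36) or replicate 3 of the untreated 40 mM group (−0.35), the adjusted p ranging between 0.0416 and 0.313 over the alternatives.

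DCTD, the deaminase of dCMP and of gemcitabine monophosphate, had 69.0, 71.1 and 71.4 RPM with drug at 40 mM glutamine, against 74.9, 79.1 and 73.2 RPM without drug. In 2 mM glutamine, it had 72.3, 74.05 and 73.8 RPM with drug, against 74.06, 76.8 and 75.1 RPM without drug. The drug libraries lay below the others at each glutamine level, although the groups nearly touched at 2 mM. Neither difference was called, at −0.10 with an interval of −0.19 to −0.02 at 40 mM (limma adjusted p = 0.0679) and −0.04 with an interval of −0.12 to 0.05 at 2 mM (adjusted p = 0.54). Without replicate 3 of the untreated 40 mM group the 40 mM difference was −0.13 and was called (adjusted p = 0.045, against 0.045 to 0.292 over the alternatives). Between 40 and 2 mM glutamine the intervals were −0.14 to 0.03 with drug, where the groups did not overlap, and −0.08 to 0.09 without drug. Neither deaminase was called in any of these 4 comparisons, which does not show that they did not differ.

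NT5C, a cytosolic nucleotidase that acts on deoxyribonucleoside monophosphates, had 12.03, 15.03 and 13.7 RPM with drug at 40 mM glutamine, against 16.3, 11.8 and 10.6 RPM without drug. At 2 mM it had 13.6, 17.5 and 16.8 RPM with drug, against 11.4, 11.3 and 10.6 RPM without drug. The drug libraries stood clear of the others at 2 mM and overlapped them at 40 mM, where 1 untreated library was above all 3 with drug. At 2 mM the means differed 1.44-fold, a log2 change of 0.48 ± 0.11 (limma adjusted p = 0.0012), and this call held under every alternative run, with values between 0.38 and 0.58. At 40 mM the change was 0.09 with an interval of −0.14 to 0.32 (adjusted p = 0.6), and the difference between the responses, −0.39 ± 0.16, was not called (adjusted p = 0.223). Over the alternatives the 40 mM change ranged between −0.03 and 0.26 and the difference between −0.51 and −0.22, and neither was called under any of them. Of its exon length, 51.0% lies opposite another annotated gene that the table does not list and 3.1% opposite ARMC7. Since the strand setting is not known, reads of these genes cannot be told apart there. ARMC7 fell with drug, by −0.41 ± 0.08 at 40 mM (limma adjusted p = 8.84e-05) and −0.35 ± 0.08 at 2 mM (adjusted p = 0.000454), and its part in the NT5C values was not tested. NT5C also has annotated pseudogenes, and reads could be split between them and the gene. In the glutamine comparisons the groups overlapped, with intervals of −0.45 to 0.02 with drug and −0.06 to 0.41 without drug.

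NT5C2, a cytosolic nucleotidase that prefers purine monophosphates such as IMP, had 57.6, 55.8 and 52.3 RPM with drug at 40 mM glutamine, against 46.9, 46.3 and 48.9 RPM without drug. In 2 mM glutamine, it had 61.5, 61.8 and 58.6 RPM with drug, against 52.0, 54.0 and 58.8 RPM without drug. The groups were apart at 40 mM and touched at 2 mM, where 1 untreated library reached the drug libraries. The log2 change was 0.22 ± 0.05 at 40 mM (limma adjusted p = 0.00144) and 0.14 ± 0.05 at 2 mM (adjusted p = 0.0309), and the difference between them, 0.07, was not called (adjusted p = 0.686). The call at 2 mM was lost without replicate 1 or 2 of either 2 mM group, with values of 0.10 to 0.13 and an adjusted p between 0.00771 and 0.175 over the alternatives.

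Glutamine was also compared for NT5C2. Without drug it was lower at 40 mM, at 47.4 ± 1.38 RPM, than at 2 mM, at 54.9 ± 3.49 RPM (SD, n = 3 each), with no overlap and a log2 difference of −0.21 ± 0.05 (limma adjusted p = 0.0044). With drug it had 55.2 ± 2.68 RPM at 40 mM and 60.6 ± 1.75 RPM at 2 mM, a difference of −0.13 with an interval of −0.24 to −0.03 (adjusted p = 0.0609). That difference was called without replicate 3 of the untreated 2 mM group, without replicate 1 of the 40 mM drug group, or when only these 2 groups were fitted (adjusted p 0.0335 to 0.277 over the alternatives). Of its exon length, 54.1% lies opposite CNNM2, a gene with a mean of 24.9 RPM. Since the strand setting is not known, reads of the genes cannot be told apart there. CNNM2 fell with drug, with log2 changes of −0.25 ± 0.07 at 40 mM (limma adjusted p = 0.00481) and −0.24 at 2 mM (adjusted p = 0.00657). The part of CNNM2 reads in the NT5C2 values was not tested.

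NT5E (CD73), the surface enzyme that makes adenosine, was the most abundant member, at 447, 432 and 406 RPM with drug at 40 mM glutamine, against 409, 445 and 415 RPM without drug. At 2 mM it had 440.1, 433 and 446 RPM with drug, against 450.0, 463 and 451 RPM without drug. The groups overlapped at 40 mM, and at 2 mM the drug libraries were all lower. Neither drug difference was called, with intervals of −0.05 to 0.08 at 40 mM and −0.12 to 0.02 at 2 mM. Without drug NT5E was lower at 40 mM, at 423 ± 19.4 RPM, than at 2 mM, at 455 ± 6.98 RPM (SD, n = 3 each), with no overlap and a log2 difference of −0.10 ± 0.03 (limma adjusted p = 0.0252). With drug the interval was −0.11 to 0.03 and the groups overlapped. The call without drug was lost with no scaling factors (−0.08), quantile (−0.05) and cyclic loess normalisation (−0.07), and without replicate 2 of the 2 mM group or replicate 1 or 3 of the 40 mM group, so that the adjusted p ranged between 0.00303 and 0.364. Averaged over both drug levels the difference was −0.07 ± 0.02 (adjusted p = 0.0178), and it was 0.003 with quantile normalisation; the adjusted p ranged between 0.0022 and 0.937.

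Other genes of deoxynucleotide handling were described from a list of 31 genes by role, of which 28 were listed and 25 passed the filter. With drug, 8 of 25 rose and 4 fell at 40 mM glutamine, against 14.1% and 16.2% of all genes, and 13 of 25 rose and 4 fell at 2 mM, against 17.5% and 17.1%. The medians were 0.07 at 40 mM and 0.22 at 2 mM, against −0.005 and −0.001 for all genes. The list was chosen with earlier results of these data known, so the counts and medians describe it and are not a test. Values under the alternative settings were taken for the members only, so calls of these 25 genes were not checked in that way. At 40 against 2 mM glutamine, 1 rose and 3 fell with drug, against 8.62% and 13% of all genes, and 5 rose and 2 fell without drug, against 8.41% and 9.12%. The drug response differed for 4 of 25, 1 of them higher and 3 lower at 40 mM, against 0.727% and 1.47% of all genes. In a role of 6 or 7 genes, a count of 1 is near these shares for the drug.

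RRM2, a subunit of ribonucleotide reductase, had the largest rise of the 25 at both glutamine levels. It rose by 0.49 ± 0.03 with drug at 40 mM and 0.76 ± 0.03 at 2 mM, and RRM1, another subunit, rose by 0.28 ± 0.03 at 40 mM and 0.35 ± 0.03 at 2 mM. CTPS1, a CTP synthase that uses glutamine as its nitrogen donor, rose by 0.26 ± 0.04 at 40 mM and 0.51 ± 0.04 at 2 mM. Of the 6 genes of this role, 3 rose and 0 fell at 40 mM, against 14.1% and 16.2% of all genes. At 2 mM 4 rose and 1 fell, against 17.5% and 17.1%. The one that fell was RRM2B, which also encodes a subunit of the reductase. Its change was −0.17 ± 0.06 at 2 mM (limma adjusted p = 0.0316) and −0.15 ± 0.06 at 40 mM (adjusted p = 0.0585). RRM2B was named after its values were seen. The difference between the responses was −0.27 for RRM2 (limma adjusted p = 0.000386) and −0.24 for CTPS1 (adjusted p = 0.0189), the same sign as for SLC29A1. That sign was the more frequent among all genes called for this difference, with 188 negative and 93 positive, and the balance depended on the scaling.

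Among 5 other nucleoside kinases, 2 rose and 1 fell with drug at 40 mM, against 14.1% and 16.2% of all genes. At 2 mM 3 rose and 0 fell, against 17.5% and 17.1%. TK1, thymidine kinase, rose by 0.33 ± 0.04 at 40 mM and 0.65 ± 0.04 at 2 mM, and its responses differed by −0.33 (limma adjusted p = 0.00154). UCK1, a uridine-cytidine kinase, rose by 0.23 ± 0.06 at 40 mM and 0.31 ± 0.06 at 2 mM, and its relative UCK2 rose at 2 mM, by 0.27 ± 0.04, with 0.07 ± 0.04 at 40 mM (adjusted p = 0.184). TK2, the mitochondrial thymidine kinase, fell by 0.17 ± 0.04 at 40 mM, with −0.10 ± 0.04 at 2 mM (adjusted p = 0.0601). DGUOK, deoxyguanosine kinase, was not called, at 0.06 ± 0.08 at 40 mM and 0.03 ± 0.08 at 2 mM, and both it and TK2 were named after their values were seen.

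Among 6 nucleotide kinases, 1 rose and 3 fell with drug at 40 mM, where 14.1% and 16.2% of all genes did, and 2 rose and 1 fell at 2 mM, where 17.5% and 17.1% of all genes did. DTYMK, thymidylate kinase, rose by 0.18 ± 0.05 at 40 mM and 0.27 ± 0.05 at 2 mM. NME4 fell by 0.13 ± 0.03 at 40 mM, while NME1 rose by 0.38 ± 0.13 at 2 mM (limma adjusted p = 0.0187), and both encode nucleoside diphosphate kinases. The NME1 groups overlapped at 2 mM, at 19.5 to 30.9 RPM with drug and 18.8 to 21.1 RPM without drug. NME1 has the near-identical relative NME2, between which reads may have been split. Among 7 other nucleotidases and hydrolases, 2 rose and 0 fell at 40 mM, against 14.1% and 16.2% of all genes. At 2 mM 4 rose and 1 fell, against 17.5% and 17.1%. DUT, which removes dUTP, rose by 0.25 ± 0.04 at 40 mM and 0.41 ± 0.04 at 2 mM, and SAMHD1, which hydrolyses deoxynucleoside triphosphates, rose by 0.22 ± 0.05 at 40 mM and 0.27 ± 0.05 at 2 mM. DCTPP1, a pyrophosphatase of dCTP, rose by 0.22 ± 0.05 at 2 mM and was lower at 40 than at 2 mM glutamine both with drug (−0.30 ± 0.05) and without (−0.18 ± 0.05).

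Of the other carriers, SLC29A4, a monoamine and adenosine transporter, fell by 0.17 ± 0.04 with drug at 2 mM and had a difference of 0.06 ± 0.04 at 40 mM. These responses differed by 0.23 (limma adjusted p = 0.0494), a call close to the threshold that was not checked under the alternatives. The concentrative carrier SLC28A1 had 0.333 to 0.919 RPM in the 12 libraries, under the filter, and SLC28A2 and SLC28A3 were not listed in the table.

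**Figure D4:**
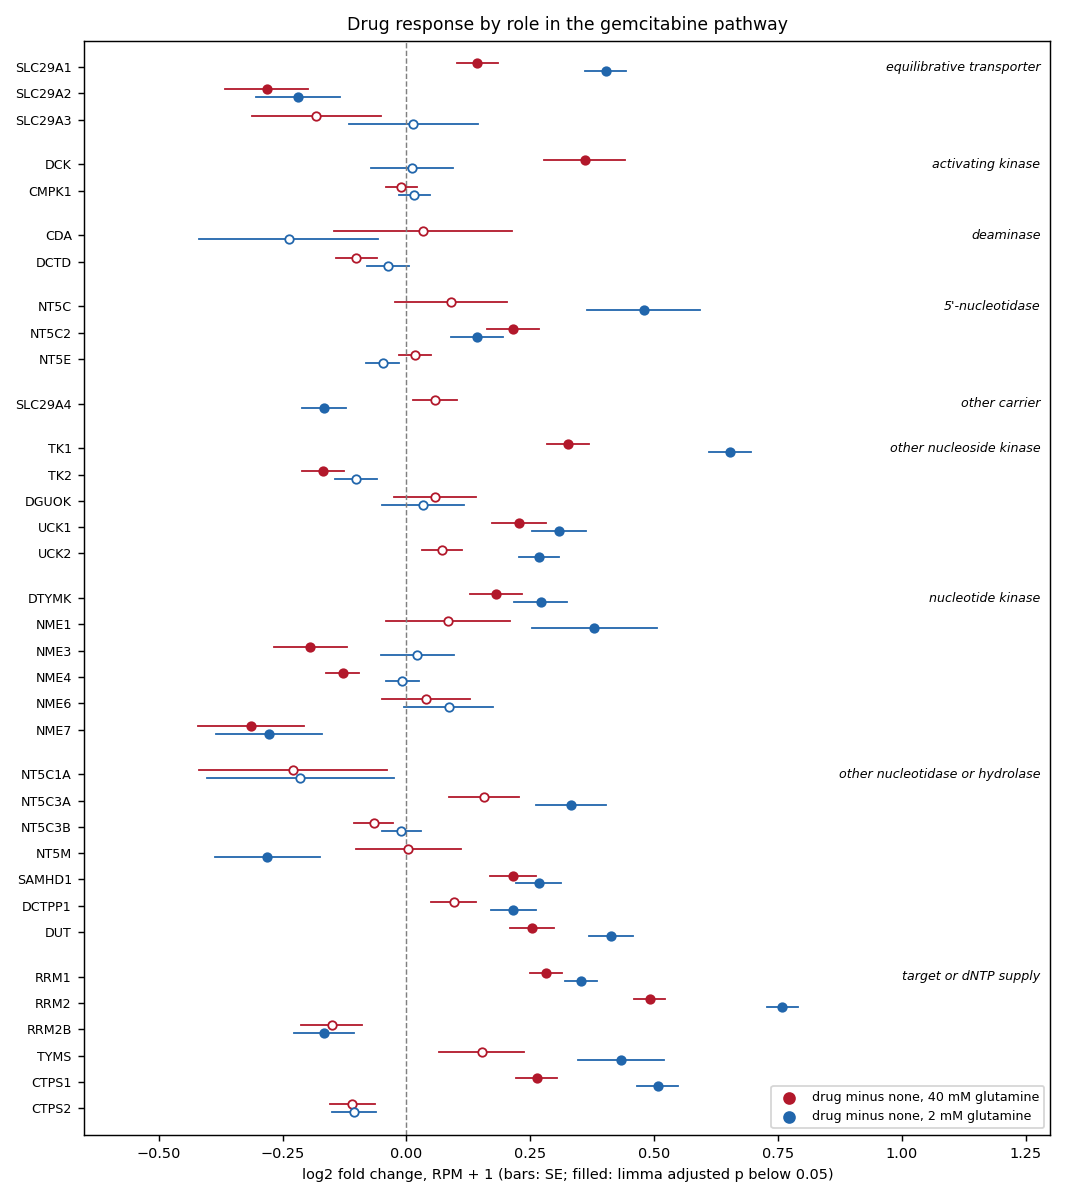
log2 fold change with drug on the RPM + 1 scale at 40 mM (red) and 2 mM glutamine (blue) for the 10 members and the 25 other genes tested, grouped by role; bars are SE and filled points had a limma adjusted p below 0.05 over all genes. RRM2 (0.49 at 40 mM and 0.76 at 2 mM) showed the largest rise at both glutamine levels, and DCK was filled at 40 mM only.

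For SLC29A1 and DCK, the genes whose pattern over the 12 libraries was most like theirs were found by the root mean square difference of centred log2 values, among 6394 and 6395 genes at or above the median level. For SLC29A1, whose own values varied by 0.19 about their mean, DDX46 (0.06), SRSF1 (0.06) and PFN2 (0.07) were nearest. SRSF1 averaged 391 RPM with drug and 373 RPM without drug at 40 mM, and 481 RPM with drug and 390.0 RPM without drug at 2 mM. For DCK, whose values varied by 0.17, MTMR6 (0.07), ZNF839 (0.09) and HMGB2 (0.10) were nearest. HMGB2 averaged 271 RPM with drug and 216 RPM without drug at 40 mM, and 245 RPM with drug and 232 RPM without drug at 2 mM.

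The counts over all genes depended on the scaling. Of the genes called, 46.6% were higher with drug at 40 mM, and 62.9% with no scaling factors. For glutamine with drug the share was 39.9%, and 68.2% with no scaling factors and 50.1% with quantile normalisation, and for glutamine without drug it was 48% and 61.2% with no scaling factors. Averaged over drug levels the share for glutamine was 46.3%, and 67.1% with no scaling factors. For the difference between the drug responses 33.1% of 281 calls were positive, and 58.9% with no scaling factors, 54.7% with quantile and 51.8% with cyclic loess normalisation. That count of 281 was 165 or 180 without replicate 1 of the untreated 2 mM group or replicate 3 of the 2 mM drug group, 155 and 157 without replicates 1 and 2 of that drug group, and 165 and 174 without replicate 3 of the untreated and replicate 1 of the drug-treated 40 mM group.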

How the data were processed

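RNA-seq libraries of MIA PaCa-2 cells were grouped by the titles the submitters gave. The deposited table holds log2 values of 15090 symbols, and the values resolve as log2(RPM + 1), reads per 1000000 divided by 1 scaling factor per library. With these factors 100% of the genes gave whole reads, within 0.05 of a read. The aligner, counting program, strand setting and genome build were not given in the sources used here. A count model was planned only for a table of raw counts, and it was not run because the deposited unit is log2. Weights from the recovered reads were used in an alternative.

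limma 3.58.1 in R 4.3.3 was fitted to the log2 values of all 12 libraries with 1 mean per group and an intensity trend, after keeping genes with at least 1 RPM in at least 3 libraries. P-values were adjusted by Benjamini and Hochberg over 12789 genes, for 7 comparisons. The method was tested on simulated data.

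All 10 members are described. Of the wider list, up to 3 genes per role with the smallest p were named, and TK2, DGUOK and RRM2B were named in addition. The members and lists were chosen with earlier results of these data known. Exon lengths and overlaps come from GENCODE, and promoters from RefSeq GRCh38.p14. Replicate numbers did not pair the libraries. No pair of replicates agreed within counting noise (chi-square per degree of freedom 2.35 to 5.33). Alternatives were 2 other pseudocounts (0.1 and 5), no filter, a mean of at least 5 RPM, no scaling factors, quantile and cyclic loess normalisation, weights from recovered reads, robust moderation, a replicate block, only the groups compared, and leaving out each library.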

Additional observations from a re-analysis of the deposited data

Results flagged for a closer look

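The response of SLC29A1 to gemcitabine differed between the glutamine levels by a test of the difference itself. The log2 change with drug at 40 mM minus that at 2 mM was −0.26 (limma, adjusted p = 0.012 over all genes). All 3 drug libraries were above all 3 without drug at each glutamine level, so the sizes of the responses differed and not their direction. The cause was not tested.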

How the results depend on the processing

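Of 1573 member values recomputed under the alternatives, 1530 stayed on their side of the threshold, 29 lost a call, 13 gained one and 1 changed sign after having been called. The one that changed sign was NT5E between 40 and 2 mM glutamine averaged over drug levels, at 0.003 with quantile normalisation. Among the 1530, 49 values that were not called changed sign. For 40 against 2 mM glutamine without drug, 1 member was called in place of 2 with no scaling factors, with quantile and with cyclic loess normalisation, because NT5E was lost in each. Over all genes, these 3 settings gave 2362, 2148 and 2231 calls in place of 2242.

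When each library was left out in turn, the members called ranged from 2 to 4 with drug at 2 mM, from 3 to 4 with drug at 40 mM, from 1 to 3 for glutamine with drug, from 1 to 2 for glutamine without drug and from 0 to 2 for the difference between the drug responses. The calls over all genes moved too, from 3539 to 4586 with drug at 2 mM and from 3241 to 3930 with drug at 40 mM. They ranged from 2079 to 2929 for glutamine with drug and from 1685 to 2283 for glutamine without drug. For the difference between the drug responses, all genes called ranged from 155 to 366. The count of 2 members at 2 mM arose without replicate 1 or 2 of the untreated group or replicate 1 of the drug group.

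Samples with the same replicate number did not deviate together, since the correlations of 18 pairs lay between −0.077 and 0.048 and 5 of 12 libraries correlated best with their own number. With a replicate block, 4 members were called for the drug at each glutamine level, 2 in each glutamine comparison and 1 for the difference between the responses. Over all genes, 306 in place of 281 were called for that difference. The drug calls over all genes were 3893 at 40 mM and 4424 at 2 mM, and the glutamine calls were 2786 with drug and 2292 without.

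A group of 3 libraries limits the precision, and for CDA so do 20 to 80 reads per library. Causes of the changes were not tested.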
